A study of Mus musculus with 24 samples.

Results

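The genes described here are 6 S100 genes (S100a4, S100a6, S100a8, S100a9, S100a10 and S100a11), 3 serum amyloid A genes (Saa1, Saa2 and Saa3) and ceruloplasmin (Cp). They were taken by symbol from 54532 gene identifiers, and all 10 were found. Of the 10, 8 passed the filter on low counts that left 17286 genes for testing; S100a4 and Saa2 did not. Kidney RNA was sequenced in bulk from 4 groups of mice with 6 libraries each. The groups were proximal tubule-specific Lrp2 knockouts (KO) and their wild-type littermates (WT) after 2 weeks of Western diet, and KO and WT after 12 weeks. All 4 groups had the Western diet, a fat-rich feed, so none shows the kidney on ordinary chow. Lrp2 encodes megalin, the receptor that takes filtered proteins up from the tubular fluid. The labels also write LRP2-SM22 for the mice without explaining it. The sources used here do not give the promoter that drives the deletion, nor the age or sex of the mice or how many went into a library. The p-values therefore describe the spread among libraries, part of which may be technical.

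S100 proteins are small calcium-binding proteins that bind other proteins, often annexins, when calcium rises. S100a8 and S100a9 form calprotectin, an abundant protein of neutrophils and monocytes that binds the receptors Tlr4 and Ager outside the cell. Serum amyloid A proteins and ceruloplasmin are acute phase proteins, which the liver releases into blood when interleukin-6 or interleukin-1 rises; Saa3 is also made outside the liver in mice, by macrophages and adipocytes. Ceruloplasmin carries copper and oxidises iron so that transferrin can bind it.

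Total counts per library ranged from 16.3 to 25.2 M (megacounts) in KO and from 15.6 to 34.1 M in WT at 2 weeks, and from 11.3 to 15.2 M in KO and from 11.4 to 14.5 M in WT at 12 weeks. Lrp2 itself averaged 352 ± 142 CPM in KO and 2005 ± 261 CPM in WT at 2 weeks, and 323 ± 73.1 CPM in KO and 1876 ± 382 CPM in WT at 12 weeks (SD, n = 6 each; CPM, counts scaled by the TMM-adjusted library size in megacounts). No KO library reached the lowest WT library. Some genes had counts at 1 duration and next to none at the other. Mt2, a metallothionein gene with 73.5% of its exon bases opposite another gene, had 0 to 9 counts in the KO libraries and 0 or 1 in the WT libraries at 2 weeks, against 275 to 496 in KO and 91 to 156 in WT at 12 weeks. Time on diet cannot be told apart from the set of libraries, so levels are compared between genotypes within a duration.

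At 2 weeks all 8 tested genes were higher in KO kidneys (edgeR quasi-likelihood test, Benjamini-Hochberg adjusted p under 0.05 over all genes), where 18.2% of all tested genes were called higher. Their median log2 fold change was 1.91, beside -0.01 over all tested genes. At 12 weeks 7 of the 8 were higher, where 20.7% of all tested genes were called higher, and Saa3 was not called. Their median log2 fold change was then 1.48. This median does not depend on the fitted Saa1 value, because Saa1 at its lower bound (5.23) is still the highest of the 8. Every KO library lay above every WT library at both durations for S100a6, S100a10, S100a11, Saa1 and Cp, and at 2 weeks for Saa3. Of all tested genes, 10.3% had this separation at 2 weeks and 10.1% at 12 weeks. Saa1 had 1 WT count at 2 weeks and 0 at 12 weeks, and Saa3 had 6 WT counts at 2 weeks. Both passed the filter mainly through KO libraries and could hardly have been called lower in those comparisons. They therefore add little to the counts of genes called or separated. In bulk RNA, more cells of a type and more RNA per cell cannot be told apart.

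**Figure D1:**
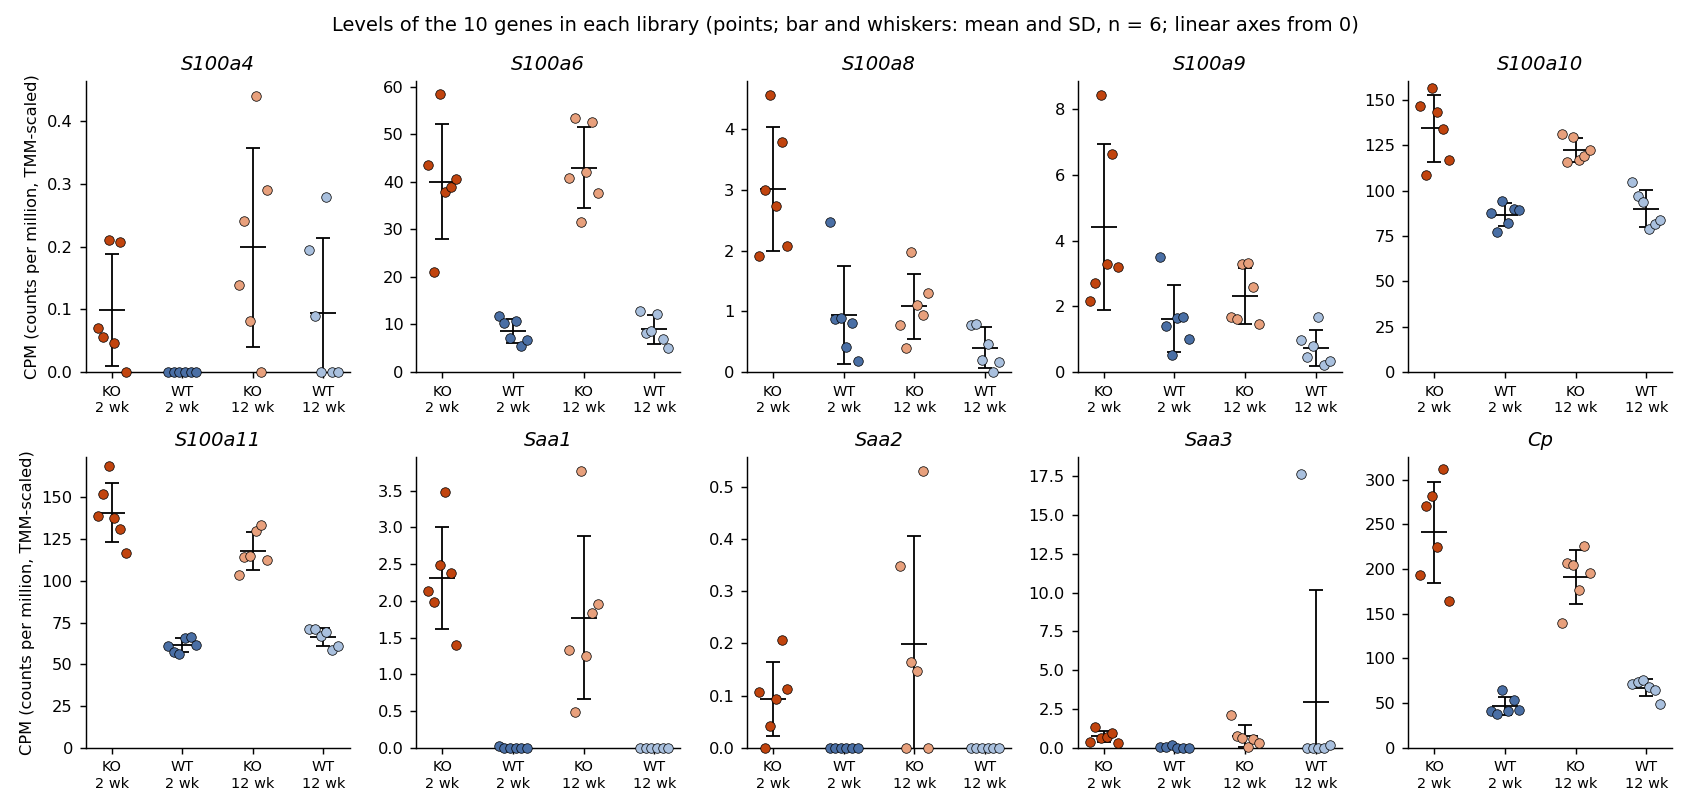
Level of each of the 10 genes in each of the 24 libraries (points), in CPM on linear axes from 0, for KO and WT at 2 weeks and KO and WT at 12 weeks; the bar and whiskers are the mean and SD of 6 libraries. KO points stand clear of WT points for S100a6, S100a10, S100a11, Saa1 and Cp, while 1 WT library at 12 weeks holds the highest Saa3 value, 17.7 CPM.

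Per kilobase of annotated exon, all isoforms joined, the levels in KO kidneys at 2 weeks ran from S100a11, at 276 ± 34.9 CPM per kilobase, down to Saa2, at 0.0371 ± 0.0280 CPM per kilobase (SD, n = 6). S100a10 came next after S100a11, at 111 ± 15.2 CPM per kilobase. S100a6 and Cp followed at 29.3 ± 8.77 and 25.2 ± 5.93 CPM per kilobase, neighbours that did not differ beyond their spread. S100a9 stood at 8.44 ± 4.84 and S100a8 at 4.34 ± 1.46 CPM per kilobase, and their ranges also overlapped. Saa1 was at 0.932 ± 0.278 and Saa3 at 0.278 ± 0.145 CPM per kilobase. S100a4 is left out of this order, because reads of its exons may have gone uncounted. The calprotectin and serum amyloid A genes were thus present at low levels in whole-kidney RNA even where their fold changes were large.

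S100a6, also called calcyclin, lies on chromosome 3 (mm10 chr3:90612882-90624181, forward strand; ENSMUSG00000001025). Its level in KO kidneys was 21.1 CPM in the lowest library, 39.8 CPM at the median and 58.5 CPM in the highest at 2 weeks. The WT libraries at 2 weeks ran from 5.43 to 11.7 CPM with a median of 8.73 CPM. At 12 weeks the KO libraries ran from 31.5 to 53.5 CPM with a median of 41.5 CPM, and the WT libraries from 5.03 to 12.8 CPM with a median of 8.40 CPM. The lowest KO library exceeded the highest WT library at each duration. The log2 fold change was 2.22 ± 0.25 (SE; adjusted p = 2.46e-05, edgeR) at 2 weeks and 2.29 ± 0.21 (adjusted p = 6.22e-06, edgeR) at 12 weeks, higher in 6 of 6 KO libraries each time.

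S100a10, also called p11, joins annexin A2 in a complex at the plasma membrane (chr3:93555080-93564643, forward strand). It had the smallest fold change of the 7 members called at both durations. KO libraries at 2 weeks ran from 109 to 156 CPM with a median of 139 CPM, and WT libraries from 77.3 to 94.4 CPM with a median of 88.5 CPM. At 12 weeks KO libraries ran from 116 to 131 CPM and WT libraries from 78.9 to 104 CPM. The groups stayed apart although the log2 fold change was small, at 0.66 ± 0.09 (SE; adjusted p = 2.47e-05, edgeR) after 2 weeks and 0.47 ± 0.08 (adjusted p = 0.000244, edgeR) after 12 weeks.

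S100a11, or calgizzarin, a partner of annexin A1, lies beside S100a10 (chr3:93520488-93526287, forward strand). Its level in KO libraries was 116 to 169 CPM with a median of 138 CPM at 2 weeks, against 55.9 to 66.2 CPM with a median of 61.4 CPM in WT libraries. At 12 weeks it was 104 to 134 CPM in KO and 58.6 to 71.1 CPM in WT. No library of one genotype reached the range of the other. The log2 fold change was 1.23 ± 0.09 (SE; adjusted p = 1.14e-08, edgeR) at 2 weeks and 0.86 ± 0.08 (adjusted p = 2.01e-06, edgeR) at 12 weeks. Of the words in its exons, 41.1% of those of 50 bases and 34.0% of those of 100 bases also occur in its pseudogene Gm12854, so reads could be shared between them; Gm12854 had 26 to 110 counts per library, while S100a11 had 577 to 3993.

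S100a4, a marker of fibroblasts and some immune cells, could scarcely be measured (chr3:90603771-90606045, forward strand). The KO libraries at 2 weeks had 2, 1, 5, 1, 4 and 0 counts, and the 6 WT libraries had 0. At 12 weeks the KO libraries had 2, 3, 1, 6, 0 and 4 counts and the WT libraries 2, 1, 0, 3, 0 and 0. With 3 counts over the WT group taken as the floor, and the KO counts taken as exact, the summed KO counts at 2 weeks were at least 4.26-fold higher. At 12 weeks the ratio of the summed counts was 2.05 (95% counting interval 0.764 to 6.41). The groups overlapped at each duration. In the fit without a filter on low counts S100a4 was called at 2 weeks (adjusted p = 0.0141, edgeR), where 16.8% of 32323 genes were called, and not at 12 weeks (adjusted p = 0.434). These counts are no level of S100a4 RNA, because 51.7% of its exon bases are annotated also as exons of Gm42674 on the same strand. Gm42674 had 0 counts in all 24 libraries, and how many S100a4 reads went uncounted was not tested. The 0 counts in WT at 2 weeks allow up to 0.0238 CPM of the reads that were counted.

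**Figure D2:**
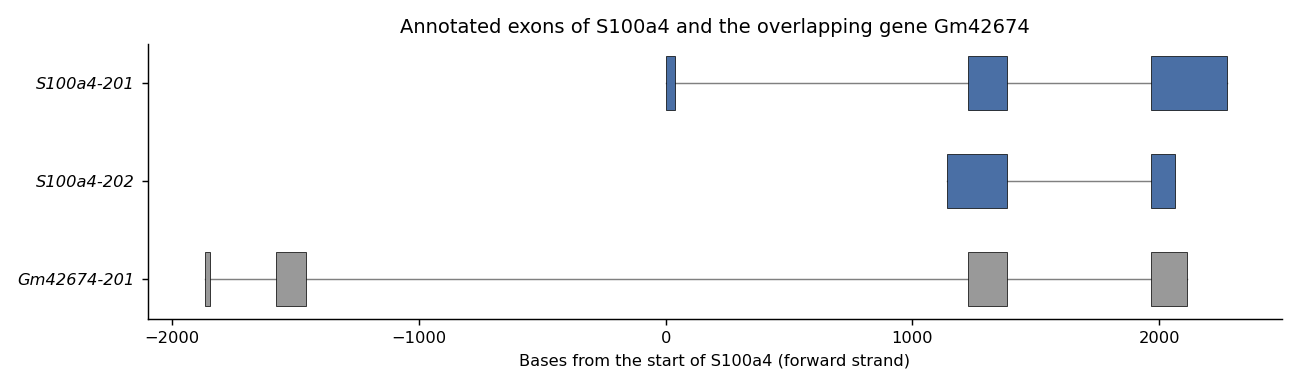
Exons (boxes) and introns (lines) of the annotated transcripts of S100a4 (blue) and of Gm42674 (grey), in bases from the start of S100a4. The 3′ exons of Gm42674 lie over those of S100a4, and 51.7% of the exon bases of S100a4 are covered.

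S100a8, the smaller subunit of calprotectin, was higher in KO kidneys but overlapped with WT (chr3:90668978-90670035, forward strand). At 2 weeks the KO libraries held 54, 53, 108, 59, 73 and 37 counts, or 1.92 to 4.56 CPM, and the WT libraries 89, 18, 17, 8, 12 and 3 counts, or 0.186 to 2.47 CPM. The WT library with 89 counts is replicate 1, the deepest of the series, and 4 of the 6 KO libraries exceeded it. At 12 weeks the KO libraries held 11, 5, 24, 15, 16 and 18 counts and the WT libraries 8, 9, 2, 5, 0 and 2 counts, and the groups again overlapped. The log2 fold change was 1.60 ± 0.42 (SE; adjusted p = 0.00773, edgeR) at 2 weeks and 1.42 ± 0.52 (adjusted p = 0.0409, edgeR) at 12 weeks. Without WT replicate 1 it was 2.26 at 2 weeks. The 12-week call was lost when any 1 of KO replicates 3 to 6 or WT replicates 3 to 6 was left out, with adjusted p between 0.0576 and 0.0869.

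S100a9, the other calprotectin subunit, lies near S100a8 on the opposite strand (chr3:90692632-90695721). The KO libraries at 2 weeks held 61, 48, 200, 71, 128 and 57 counts, or 2.16 to 8.45 CPM. The WT libraries held 126, 29, 10, 32, 25 and 16 counts, or 0.520 to 3.50 CPM. At 12 weeks the KO libraries held 20 to 45 counts (1.45 to 3.31 CPM) and the WT libraries 2 to 18 counts (0.203 to 1.68 CPM). The groups overlapped at both durations, by WT replicate 1 at 2 weeks and by WT replicate 4 at 12 weeks. The log2 fold change was 1.42 ± 0.44 (SE; adjusted p = 0.0236, edgeR) at 2 weeks and 1.67 ± 0.41 (adjusted p = 0.00453, edgeR) at 12 weeks. The 2-week call was lost without WT replicate 2 (adjusted p = 0.0514) and without WT replicate 6 (adjusted p = 0.0516), and in the fit without a filter on low counts (adjusted p = 0.0749).

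The 2 calprotectin genes had their highest KO library and their highest WT library at 2 weeks in common, KO replicate 3 and WT replicate 1. At 12 weeks their highest libraries differed. Markers of neutrophils were in part higher too. The summed level of the 14 listed markers was 11.2 to 22.8 CPM in KO and 2.74 to 4.55 CPM in WT at 2 weeks, and 7.67 to 19.8 CPM in KO and 2.23 to 6.11 CPM in WT at 12 weeks. Of the 14, 5 passed the filter, and of these all 5 were called higher at 2 weeks and 3 at 12 weeks. Over all tested genes, 18.2% were called higher at 2 weeks and 20.7% at 12 weeks. Mmp9, with 6 to 22 counts per WT library at 2 weeks, and Cxcr2, with 0 to 13, passed the filter mainly through KO libraries. Their calls therefore add little to that count. Ltf, another of the 5, had 2 to 10 counts per WT library at 2 weeks. It could likewise hardly have been called lower then. Csf3r and Mmp9 hold most of the counts in that sum. At 2 weeks the smallest adjusted p values belonged to Csf3r, the receptor for granulocyte colony-stimulating factor (log2 fold change 2.11), Mmp9, a gelatinase (2.74), Clec4d, a lectin receptor (3.18), and Cxcr2, a chemokine receptor (1.81). At 12 weeks Csf3r had 1.74, Mmp9 2.79 and Cxcr2 3.10, while Clec4d (1.63, adjusted p = 0.105, edgeR) and Ltf, lactoferrin (-0.21, adjusted p = 0.814), were not called. Genes of neutrophil granules below the filter had few counts in both genotypes. Ngp summed to 24 counts in KO and 19 in WT at 2 weeks and to 10 in KO and 11 in WT at 12 weeks, and Camp to 7 in KO and 4 in WT and to 1 in KO and 3 in WT. Retnlg, a resistin-like gene, summed to 54 counts in KO and 23 in WT at 2 weeks and to 10 in each at 12 weeks. Ly6g, the defining marker of mouse neutrophils, was nearly absent, with 0 or 1 count per KO library and 0 to 3 per WT library at 2 weeks and 0 in both genotypes at 12 weeks. All 14 listed macrophage and monocyte markers were called higher at both durations, with medians of 2.31 and 2.03 on the log2 scale; Cd68, a lysosomal protein of macrophages, had 1.79 and 1.65, and Mrc1, the mannose receptor, 2.67 and 2.82. Their summed level was 480 to 1199 CPM in KO and 147 to 205 CPM in WT at 2 weeks. At 12 weeks it was 707 to 1439 CPM in KO and 154 to 389 CPM in WT. The part of either cell type in the S100 and serum amyloid A results was not tested.

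**Figure D3:**
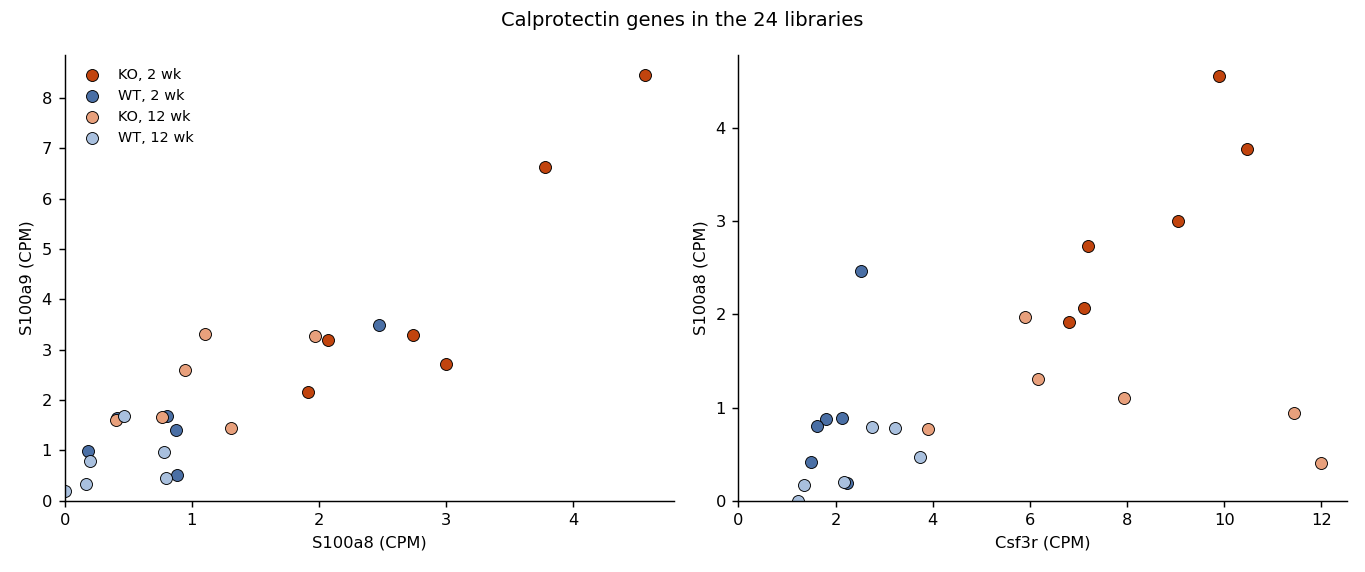
Left, S100a9 against S100a8 in the 24 libraries, both in CPM on linear axes; right, S100a8 against the neutrophil marker Csf3r. The KO libraries at 2 weeks reach 4.56 CPM of S100a8 and 8.45 CPM of S100a9, and 1 WT library at 2 weeks, at 2.47 CPM of S100a8, lies among them on the left but at only 2.53 CPM of Csf3r on the right.

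The serum amyloid A genes lie together on chromosome 7. Their upstream sequences are shown because Saa1 and Saa2 are near copies that differed in counts while Saa3 is more distant. Each sequence covers bases -200 to -51 from the RefSeq start (build GRCm38.p6), written in the direction of the gene. In all, 6 motifs were searched on both strands, with no list of them set before the sequences were seen. Capitals mark matches to the 2 of them found in these stretches: TTGCNNAA, a form of the C/EBP site, and a relaxed form of the NF-kappa B site (GG, any 3 bases, TTTCC).
Saa1 (chr7:46743031-46743180, reverse strand): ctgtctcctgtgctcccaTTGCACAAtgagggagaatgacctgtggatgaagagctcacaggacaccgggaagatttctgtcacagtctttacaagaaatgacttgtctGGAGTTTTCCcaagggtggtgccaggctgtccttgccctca
Saa2 (chr7:46751633-46751782, forward strand): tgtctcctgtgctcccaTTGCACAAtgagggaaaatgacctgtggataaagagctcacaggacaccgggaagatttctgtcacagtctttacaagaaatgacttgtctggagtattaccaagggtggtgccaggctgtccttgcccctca
Saa3 (chr7:46715727-46715876, reverse strand): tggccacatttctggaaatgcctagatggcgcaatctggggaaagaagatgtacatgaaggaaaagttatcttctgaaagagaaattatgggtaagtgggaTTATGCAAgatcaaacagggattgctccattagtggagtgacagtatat
Over the 250 upstream bases, Saa1 and Saa2 were identical at 94.8% of aligned positions, Saa1 and Saa3 at 48.5%. All 3 windows hold a C/EBP match, which 9.57% of 32817 RefSeq mouse promoters have. The relaxed NF-kappa B letters were found upstream of Saa1 and of no other of the 9 genes with a promoter in the table, where 4.63% of all promoters have them. S100a9 and the second start of Cp also held a C/EBP match, at -236 and -70. The strict form of the NF-kappa B site (GGGA, any base, TTTCC), of which the relaxed form takes in every match, was found in none of the 9 genes and in 0.357% of promoters. None of the 9 held TTCNNNGAA, a form of the STAT site, which 7.01% of promoters have. S100a10 had no promoter to search. None of the serum amyloid A genes held the other 2 motifs: TATAAA, in 12.4% of promoters, was found for S100a4, S100a8 and the second start of Cp, and TGANTCA, the AP-1 site, in 6.75% of promoters, for S100a11 and the first start of Cp. With 6 motifs and 10 promoters searched, single matches carry little weight, and they describe the letters only.

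Saa1 was present at a low level in every KO library and nearly absent in WT (chr7:46740497-46742980, reverse strand). The KO libraries at 2 weeks held 60, 35, 59, 75, 46 and 25 counts, or 1.40 to 3.48 CPM, and the 6 WT libraries held 1 count between them. At 12 weeks the KO libraries held 19, 6, 46, 17, 31 and 27 counts, or 0.483 to 3.77 CPM, and the WT libraries held 0. The ratio of the summed counts, scaled for depth, was 295 at 2 weeks (300 against 1 count, 95% counting interval 52.6 to 11692). At 12 weeks there were 146 KO counts and 0 WT counts. The ratio was then at least 37.5, with a WT floor of 3 counts over the group and the KO counts taken as exact. Saa1 was called higher at both durations (adjusted p = 5.48e-09 and 0.000234, edgeR), in 6 of 6 KO libraries each time. Its fitted log2 fold change, which is no bound, was 7.43 at 2 weeks and 8.54 without WT replicate 1, the library with the 1 count. The 0 counts in WT at 12 weeks allow a level of up to 0.0467 CPM, for counting error only.

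Saa2 had 3, 0, 1, 2, 4 and 2 counts in the KO libraries at 2 weeks and 5, 0, 2, 2, 9 and 0 counts at 12 weeks, and 0 counts in all 12 WT libraries (chr7:46751790-46754313, forward strand). With the same floor, and the KO counts taken as exact, the summed KO counts were at least 3.93-fold higher at 2 weeks. At 12 weeks they were at least 4.62-fold higher on the same terms. Saa2 did not pass the filter. In the fit without a filter it was called at both durations (adjusted p = 0.0154 and 0.0180, edgeR); 21.0% of 29627 genes were called in that fit at 12 weeks. Of the words in the exons of Saa1, 31.1% of those of 50 bases and 8.96% of those of 100 bases also occur in Saa2. The sources used here do not give the read length, so how many reads cannot be placed between them is not known, and their counts are uncertain as a pair.

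Saa3 was higher in KO kidneys at 2 weeks (chr7:46711998-46715700, reverse strand). The KO libraries held 11, 24, 15, 15, 18 and 6 counts, or 0.336 to 1.36 CPM, and the WT libraries 1, 1, 4, 0, 0 and 0 counts, or 0 to 0.208 CPM. The groups did not overlap, and the log2 fold change was 3.77 ± 0.62 (SE; adjusted p = 0.000140, edgeR). With all 24 libraries in 1 fit the adjusted p was 0.0885, and without WT replicate 3, which held 4 of the 6 WT counts, the log2 fold change was 4.91.

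At 12 weeks 1 WT library decided the Saa3 result. The KO libraries held 30, 9, 8, 1, 10 and 4 counts, or 0.0735 to 2.09 CPM. The WT libraries held 181, 0, 0, 0, 0 and 2 counts, and WT replicate 1 thus reached 17.7 CPM, above every KO library. The log2 fold change was -1.96 ± 1.48 (SE; adjusted p = 0.330, edgeR). Without WT replicate 1 it was 4.03 ± 1.01 (adjusted p = 0.00665), and all 8 tested members were then called higher at 12 weeks. The WT libraries left held 2 counts of Saa3 and 0 of Saa1, so these genes could hardly have been called lower. With any 1 library left out, 5515 to 6961 of 17286 genes were called at 12 weeks in either direction. Leaving out KO replicate 1, the highest KO library, gave -2.62.

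Other genes stood apart in the same WT library. With 0.5 CPM added to both values, which holds back genes of low level, 17 of 17286 tested genes were over 4 times their next highest WT value at 12 weeks, and Saa3 led them by the log2 difference on that scale. The following were named after their values were seen. Ighm, an immunoglobulin chain, was at 187 CPM there, against at most 20.4 CPM in the other 5 WT libraries; Cd79a, a B cell gene, was at 7.13 against at most 0.840 CPM. Plin1, a lipid droplet gene of adipocytes, was at 2.44 CPM against 0, and Hp, an acute phase gene, at 4.29 against at most 0.443 CPM. Lyz2, a macrophage lysozyme, was also highest there, at 128 against at most 35.7 CPM, but was not among the 17. The same held for C3, another acute phase gene, at 86.4 CPM. Adipoq, an adipocyte hormone and also not among the 17, was at 1.46 CPM in WT replicate 1 at 12 weeks. It was highest in KO replicate 4 at 12 weeks, at 18.5 CPM, where Saa3 had 1 count. KO replicate 2 at 12 weeks had 4310 CPM of Ighm with 9 counts of Saa3. KO replicate 1 at 12 weeks, with the most Saa3 of the KO libraries (30 counts), came next in both genes. It had 8.78 CPM of Adipoq and 424 CPM of Ighm. These KO libraries were picked after their values were seen. The part of these genes in the Saa3 value was not tested.

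Cp had the largest difference in CPM of the 10 genes (chr3:19957054-20009145, forward strand). At 2 weeks the KO libraries ran from 164 to 312 CPM with a median of 248 CPM, and the WT libraries from 37.9 to 64.6 CPM with a median of 41.9 CPM. At 12 weeks the KO libraries ran from 139 to 226 CPM with a median of 200.1 CPM, and the WT libraries from 49.4 to 76.0 CPM with a median of 69.7 CPM. The genotypes were far apart at each duration. The log2 fold change was 2.39 ± 0.18 (SE; adjusted p = 2.38e-07, edgeR) at 2 weeks and 1.54 ± 0.12 (adjusted p = 7.11e-07, edgeR) at 12 weeks. Only 1.13% of its exon bases lie opposite another gene, Hps3.

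**Figure D4:**
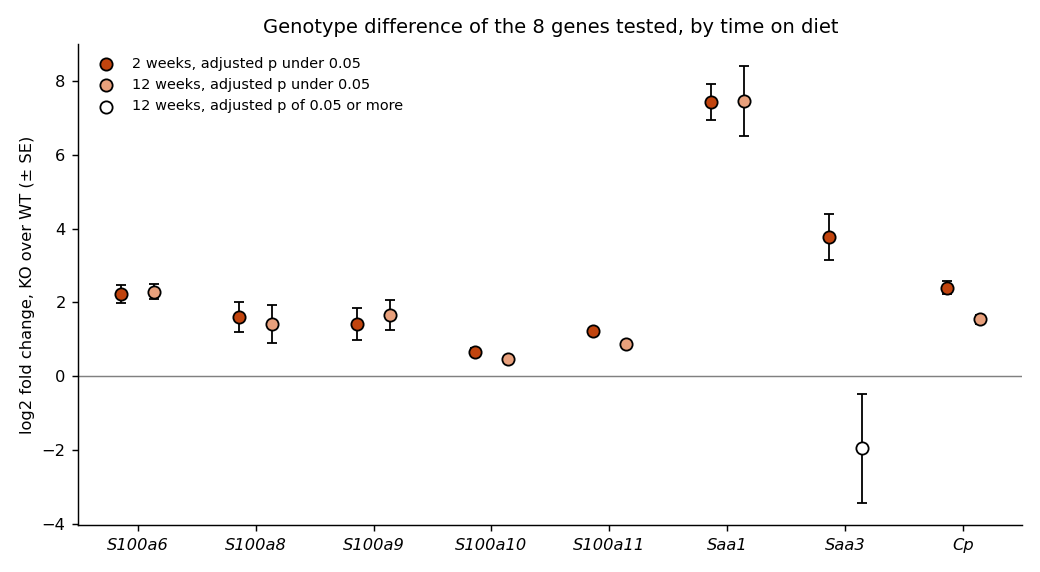
Log2 fold change of KO over WT (± SE) for the 8 tested genes at 2 and 12 weeks; filled points have an adjusted p under 0.05 and the open point does not. All but Saa3 at 12 weeks lie above 0, and the Saa1 values rest on WT groups with 1 and 0 counts, so they are no bounds.

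Whether the genotype difference depended on the duration was tested as an interaction over all 24 libraries. None of the 8 members was called (edgeR), where 30 genes, 0.174% of those tested, were. For Saa1, with 1 WT count at 2 weeks and 0 at 12 weeks, the interaction could not be measured. At an unadjusted p under 0.05 there were 3 members, S100a11, Saa3 and Cp, where 10.6% of all tested genes had such a p. For Cp the log2 fold change was lower by 0.85 ± 0.21 at 12 weeks than at 2 weeks, an interaction of -0.85 (adjusted p = 0.109, edgeR), and for S100a11 the interaction was -0.37 ± 0.11 (adjusted p = 0.196). DESeq2 called 1 member, Cp (adjusted p = 0.0225), and Cp was called by edgeR without WT replicate 3 (adjusted p = 0.0437) or KO replicate 6 (adjusted p = 0.0428) of the 2-week groups. The Saa3 interaction, -5.69 ± 1.97 (adjusted p = 0.267), was 0.38 without WT replicate 1 of the 12-week group.

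Among the relatives and binding partners of the S100 proteins that could be tested, more were called higher than lower. Of 10 other S100 genes, 5 could be tested; 3 were called higher and 1 lower at 2 weeks, and 3 higher at 12 weeks. S100a14, an epithelial S100 gene, had the largest change of these 5, with a log2 fold change of 2.60 at 2 weeks and 3.06 at 12 weeks. S100a16 (0.45 and 0.28) and S100a13 (0.44 and 0.61) changed less. S100g, the vitamin D-dependent calbindin of the distal tubule, was lower at 2 weeks (-0.44, adjusted p = 0.00648, edgeR) and not called at 12 weeks (-0.32, adjusted p = 0.0833). The summed level of the 10 other S100 genes had a median of 470 CPM in KO and 502 CPM in WT at 2 weeks. At 12 weeks this median was 367 CPM in KO and 434 CPM in WT, and the ranges overlapped at both durations. Of 14 tested partners and receptors, 10 were called higher at 2 weeks, the other 4 having an adjusted p of 0.05 or more, and 10 were higher and 3 lower at 12 weeks. Over all tested genes, 18.2% were called higher and 13.4% lower at 2 weeks, and 20.7% higher and 17.7% lower at 12 weeks. Anxa2, the partner of S100a10, had log2 fold changes of 1.28 and 1.26, Anxa5 0.80 and 0.60, and Anxa6 0.62 and 0.83 at 2 and 12 weeks. Tlr2, a receptor for serum amyloid A, had 2.13 and 1.96. The 3 lower at 12 weeks were Cd36, a scavenger receptor (-0.49), Bsg, or basigin (-0.24), and Anxa11 (-0.17). The median log2 fold change of the 14 was 0.64 at 2 weeks and 0.69 at 12 weeks, beside -0.01 and 0.00 over all genes.

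Other acute phase genes were called higher in 13 of the 16 tested at each duration, with medians of 1.88 and 1.71 on the log2 scale. The share of all tested genes called higher was 18.2% at 2 weeks and 20.7% at 12 weeks. Some of the 16 had few WT counts. Mt2, mostly opposite another gene, summed to 17 KO and 2 WT counts at 2 weeks. Hp had 54 WT counts at 12 weeks, of which 44 were in 1 library. Lcn2, the iron-siderophore carrier lipocalin 2, had a log2 fold change of 6.33 at 2 weeks and 5.35 at 12 weeks. C3, the central complement protein, had 4.55 and 3.35, Cd14, the lipopolysaccharide co-receptor, 2.97 and 1.97, and Lrg1, a leucine-rich glycoprotein of serum, 2.36 and 1.96. Genes that the liver lowers in the acute phase showed no common direction: of 5 tested, Trf was called higher (1.32) and Ttr lower (-0.73) at 2 weeks, and Trf (1.32) and Rbp4 (1.97) higher at 12 weeks. Of Trf's exon bases, 63.5% are shared with Gm20425 on its strand. Liver markers did not move as a list, with 1 of 9 called higher and 2 lower at each duration. The gene called higher was Fgb, a fibrinogen chain (5.13 and 3.33), and F2, prothrombin, was lower at both durations (-2.75 and -1.96). Apob was lower at 2 weeks (-0.58) and Apoh at 12 weeks (-0.81). Tat and Mup20 had 0 counts in both WT groups.

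Of 18 tested genes for cytokines of the acute phase and their signalling, 15 were called higher at 2 weeks, and 15 higher and 1 lower at 12 weeks. Among all tested genes, 18.2% were called higher at 2 weeks and 20.7% at 12 weeks. Osmr, the oncostatin M receptor, had log2 fold changes of 2.33 and 1.71, Lif, a cytokine of the interleukin-6 family, 4.39 and 2.95, and Socs3, the feedback inhibitor of that pathway, 3.40 and 2.92. Cebpd, a C/EBP factor, had 1.92 and 1.68; part of its sequence lies opposite an exon of Spidr. Il22ra1, the interleukin-22 receptor chain, was lower at 12 weeks (-0.64, adjusted p = 0.0458, edgeR). Il6 itself was at 0.336 to 1.40 CPM in KO libraries and 0 to 0.124 CPM in WT libraries at 2 weeks. At 12 weeks it was at 0.508 to 2.09 CPM in KO and 0 to 0.293 CPM in WT, so the groups did not overlap. Of all tested genes, 10.3% at 2 weeks and 10.1% at 12 weeks had every KO library above every WT library. Il6 had 0 to 2 counts per WT library at 2 weeks and 0 to 3 at 12 weeks. It could thus hardly have been lower in KO.

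The genes that handle copper and iron beside ceruloplasmin went in both directions. Of 17 tested, 3 were called higher and 5 lower at 2 weeks, and 5 higher and 8 lower at 12 weeks. Among all tested genes, 18.2% were called higher and 13.4% lower at 2 weeks, and 20.7% higher and 17.7% lower at 12 weeks. Tfr2, the second transferrin receptor, had log2 fold changes of 3.42 and 1.78, and Slc40a1, the iron exporter ferroportin, 0.71 and 0.21. Hmox1, heme oxygenase, was the other gene called higher at 2 weeks (0.28), and Heph, the membrane ferroxidase related to ceruloplasmin, was called at 12 weeks (0.41) but not at 2 weeks (0.01, adjusted p = 0.968, edgeR). Steap3, a metalloreductase, was also called at 12 weeks (0.67). Atp7b, the copper pump that loads ceruloplasmin, was lower at both durations (-0.91 and -0.79), as was Slc11a2, an iron importer (-0.35 and -0.43).

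**Figure D5:**
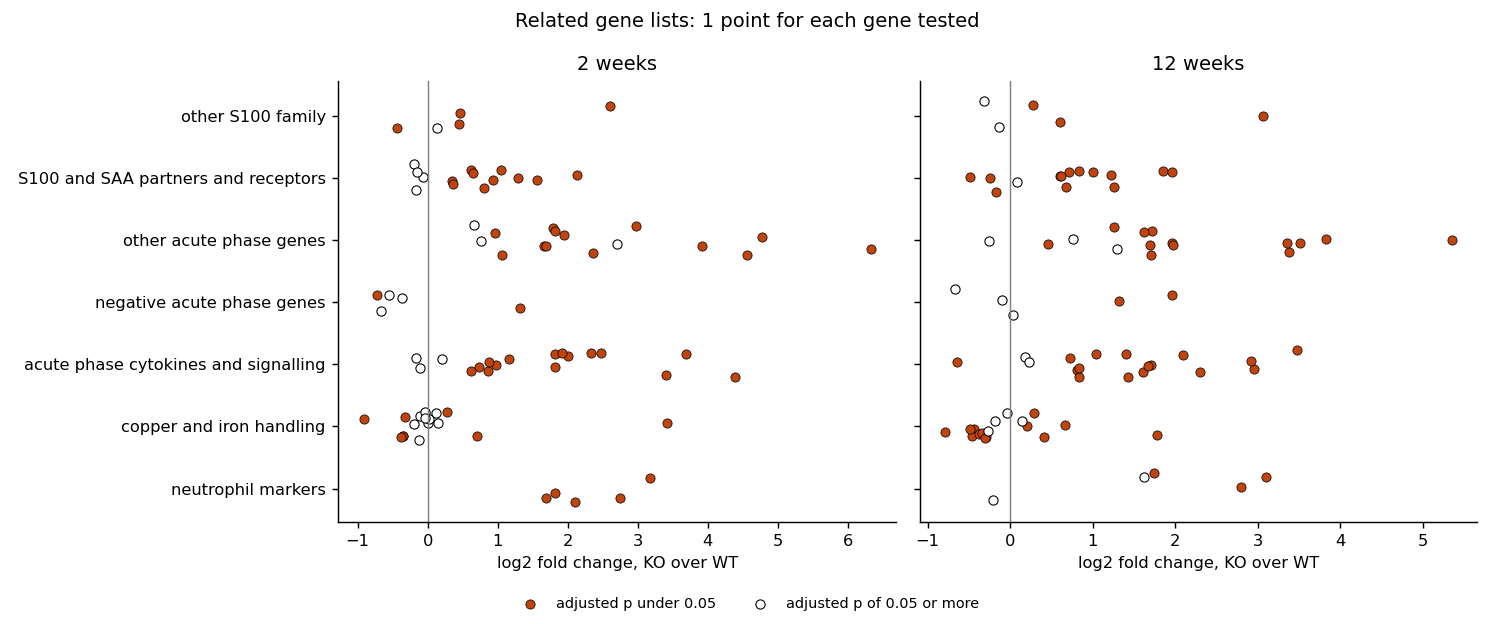
Log2 fold change of KO over WT at 2 weeks (left) and 12 weeks (right) for each tested gene of 7 related lists, 1 point a gene; filled points have an adjusted p under 0.05. The other acute phase genes reach 6.33, the value of Lcn2 at 2 weeks, and the copper and iron genes lie on both sides of 0.

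Other lists moved along with the members in the same libraries. The shares of all tested genes were 18.2% higher and 13.4% lower at 2 weeks, and 20.7% higher and 17.7% lower at 12 weeks. All 12 listed markers of injured tubules were called higher at both durations, with medians of 3.36 and 2.78 on the log2 scale, and Clu, clusterin, at 2.77 and 2.00. Of 12 fibroblast markers, 10 and 12 were called higher, Fn1, fibronectin, at 2.91 and 2.45. Of 10 kidney segment markers, 6 were called lower at 2 weeks, and 4 lower and 1 higher at 12 weeks. Of 9 tested adipocyte markers, 3 were called lower at 2 weeks, and 4 higher and 1 lower, Lpl (-0.97), at 12 weeks. The part of these shifts in the members' values was not tested.

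Among the 12 KO libraries, with each group centred on its mean log2 CPM, the closest members were S100a8 and Saa1 (Pearson r = 0.82), followed by S100a8 and S100a9 (0.66) and S100a11 and Cp (0.61). The lowest value was that of S100a6 and Saa1 (-0.31). The non-member genes most like S100a6 were Mxra7 (0.97), Atf5 (0.95), Vasp (0.94) and Sdc1 (0.94). Those most like Cp were Pi15 (0.95), C9orf72 (0.90), Slfn4 (0.89) and Cttnbp2nl (0.86), and those most like S100a8 were Tspan5 (0.89), Rpl7a-ps5 (0.87), Plau (0.87) and Lmbr1 (0.87). Those most like Saa3 were Ttc1 (0.93), Srp54c (0.91), Trmt11 (0.90) and Gm12174 (0.89). For each of these members the genes given are the highest of 15265 compared, so their values are high in part through the picking. The values share libraries and their depth, describe 12 points, and carry no test. With counts as low as those of Saa3 and S100a8 they are loose.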

How the data were processed

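Raw read counts per Ensembl gene were deposited by the authors, 1 file per library and not normalized. Per the submitters' processing notes fastp, STAR 2.5, HTSeq 0.6.1 and mm10 were used; the sources used here do not give their options, the strand setting or the annotation. RNA was purified with a Maxwell RSC simplyRNA kit and libraries made with a NEBNext Ultra RNA kit, per the labels. Symbols, positions and exon overlaps came from GENCODE M21 for 54495 of 54532 identifiers; the other 37 held at most 0.00528% of a library's counts. Promoters came from RefSeq (GRCm38.p6). The 9 genes matched, all members but S100a10, had 10 promoters, in which 6 motifs were searched. Protein sequences were not used here.

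The tests were two-sided quasi-likelihood F tests, robust, of edgeR 4.0.16 (R 4.3.3) after TMM scaling. The filterByExpr function, at a minimum count of 10 and a minimum total of 15, kept 17286 genes over all 24 libraries, and p-values were Benjamini-Hochberg adjusted over them (threshold 0.05). Each genotype comparison used the 12 libraries of its duration and the interaction all 24. The members and gene lists were chosen with earlier results of these data known. Named genes were all members, Lrp2, per list up to 4 called genes with the smallest adjusted p at 2 weeks and any called in the minority direction, and the genes most like 4 members by Pearson r of log2 CPM (prior count 0.5) among genes with a mean of at least 1 CPM. Il6, Ly6g, Ltf, Ngp, Camp, Retnlg, Apoh, Tat, Mup20, Rbp4, Mt2 and the genes that stood apart in 1 library fall outside this rule and were named after their values were seen. The result of 1 gene that the rule names is not reported here. Floors are 3 counts over a group and intervals 95% exact binomial on summed counts. Folds over a floor take the KO counts as exact and leave out their counting error. PCR copies are not independent molecules, so floors and intervals cover only counting error. Replicate numbers did not pair libraries (correlation of residuals between -0.097 and 0.161), and no pair of libraries was near identical. The fits were tested on simulated data with 100 genes each changed by log2 1 and 2.

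The fits were repeated with DESeq2 1.42.0, with upper-quartile or RLE scaling, without a filter, on genes averaging 1 CPM or more, with the replicate number as a block, on all 24 libraries together, with calls limited to an absolute log2 fold change of 1 or more, and with each library left out. Figures were drawn with Python 3.11.15.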

Additional observations from a re-analysis of the deposited data

Results flagged for a closer look

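A sample far from the other 5 of its group was found in 5 of 36 combinations of a gene and a group, leaving out groups with 0 counts in all libraries. The cut-off gives about 1 in 20 for normally distributed values. Counts near 0 are not such values, so that rate cannot be set against the 5. S100a8 reached 2.47 CPM in WT replicate 1 at 2 weeks, and Saa1 reached 0.0278 CPM, which is 1 count, in the same library. With 0 counts in the other 5, that Saa1 value was bound to be flagged. Saa3 was flagged in 3 groups: at 2.09 CPM in KO replicate 1 at 12 weeks, at 0.208 CPM in WT replicate 3 at 2 weeks, and at 17.7 CPM in WT replicate 1 at 12 weeks.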

How the results depend on the processing

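For S100a6, S100a10, S100a11, Saa1 and Cp, direction and call were the same at both durations under the alternatives run, except that a minimum absolute log2 fold change of 1 left 7 members called at 2 weeks and 5 at 12 weeks. With it, 1620 genes were called at 2 weeks and 1993 at 12 weeks, against 5467 and 6653. For the interaction, DESeq2 called 154 genes and the fold minimum left 19, against 30; leaving out libraries gave 22 to 56 genes (56 without KO replicate 3 at 12 weeks) and 0 to 1 members, and DESeq2 called 1 member. Interactions near 0 changed sign. That of Saa1, -0.81 with DESeq2, also did, but it rests on WT groups with 1 and 0 counts and could not be measured. Without WT replicate 1 at 2 weeks, which held the 1 count, its SE was 700. Over the libraries left out, the interaction ranged from -0.053 to 0.24 for S100a6, -0.15 to 0.68 for S100a9, -0.40 to 0.84 for Saa1, -0.81 to 0.13 for S100a8 and -6.78 to 0.38 for Saa3. Saa3 at 12 weeks ranged from -2.62 to 4.03. At 2 weeks S100a9 was not called without a filter (adjusted p = 0.0749). The cause of the other moves was not tested.

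The replicate numbers do not pair the libraries. A fit with them as a replicate block called 5103 genes at 2 weeks, 5950 at 12 weeks and 21 for the interaction, with 7, 6 and 0 members called. S100a9 at 2 weeks (adjusted p = 0.0934) and S100a8 at 12 weeks (adjusted p = 0.104) were not called, and Saa3 at 12 weeks was 0.35 (adjusted p = 0.854).

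Depth limits S100a4, Saa2 and, in WT, Saa1 and, at 2 weeks, Saa3, each with few counts or 0; Saa3 in WT at 12 weeks rests on 1 library with 181 of 183 counts. Overlapping annotation limits S100a4, and shared sequence Saa1, Saa2 and S100a11.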
